A study of Danio rerio with 6 samples.

Results

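The ATF4 branch of the stress response was examined through 10 zebrafish genes taken by symbol from the 32520 genes of the count table: the transcription factor genes atf4a, atf4b and ddit3, the stress effectors trib3 and chac1, and the amino acid and one-carbon enzyme genes asns, phgdh, psat1, shmt2 and mthfd2. The series sequenced polyA RNA of whole embryos collected 5 days after fertilization, in 3 sas10 mutant and 3 wild type libraries. Sas10, encoded by utp3, is a nucleolar protein needed to mature the RNA of the small ribosomal subunit. The labels name the mutants by genotype only, call the libraries biological repeats, and give no allele, strain, clutch or batch.

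ATF4 is a basic leucine zipper transcription factor. In mammals, kinases that sense amino acid shortage, misfolded proteins, heme shortage or viral RNA phosphorylate the initiation factor eIF2, which lowers general translation while favouring translation of the ATF4 mRNA, so that transcript levels alone do not report the protein. ATF4 then raises genes for amino acid synthesis and uptake, for serine-derived one-carbon units in mitochondria, and for feedback regulators. Zebrafish carry 2 copies of the gene, atf4a and atf4b.

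Of the 10 genes, 8 rose in sas10 mutants, shmt2 fell, and chac1 held no counts in any library. The pseudokinase gene trib3 changed most, to 5.34 times its wild type mean, and the increases of the others lay between 1.53 and 2.60 times. All 9 genes with counts were called by edgeR's quasi-likelihood test at a Benjamini-Hochberg adjusted p under 0.05, where 62.2% of the 21708 genes tested were called, 30.5% as higher and 31.8% as lower in mutants. Their mutant and wild type libraries did not overlap, which held for 67.6% of all tested genes. Calls and separate groups were thus common over the whole table. Their median log2 fold change was 1.09, beside -0.04 over all tested genes, and 5 of them rose at least 2-fold, as did 13.2% of tested genes.

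Gene counts totalled 17599625 to 19718753 in each library, and the share from mitochondrial genes was 6.19% to 7.37% in mutants and 5.97% to 6.24% in wild type. The transcript of the mutated gene, utp3, had 10.7, 11.3 and 10.5 counts per 1000000 (CPM, on scaled library sizes) in mutants and 35.02, 34.7 and 27.2 CPM in wild type (log2 -1.58 ± 0.13 SE; edgeR adjusted p = 1.53e-06). In whole embryos, fewer cells of a type and less RNA per cell cannot be told apart.

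The order of transcript levels, compared per exon length in transcripts per 1000000 (TPM), was headed by the ATF4 genes themselves. In mutants, mean levels were 896.1 TPM for atf4a, 458.3 for atf4b, 147 for trib3, 107.4 for ddit3, 63.1 for shmt2, 39.6 for mthfd2, 35.2 for phgdh, 34.3 for psat1 and 16.2 for asns. The neighbours mthfd2 and phgdh, and phgdh and psat1, overlapped between mutant libraries. In wild type, the order was atf4a at 432.5 TPM, atf4b at 186.3, shmt2 at 87.2, ddit3 at 59.4, trib3 at 28.8, phgdh at 24.1, mthfd2 at 22.3, psat1 at 16.9 and asns at 7.59. There phgdh and mthfd2 overlapped. The gene trib3 thus held place 3 in mutants and place 5 in wild type, and shmt2 held place 5 in mutants and place 3 in wild type. Together atf4a and atf4b made up 74.1% to 76.2% of the summed TPM of the 9 genes with counts in mutant libraries and 69.4% to 72.7% in wild type libraries.

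**Figure D1:**
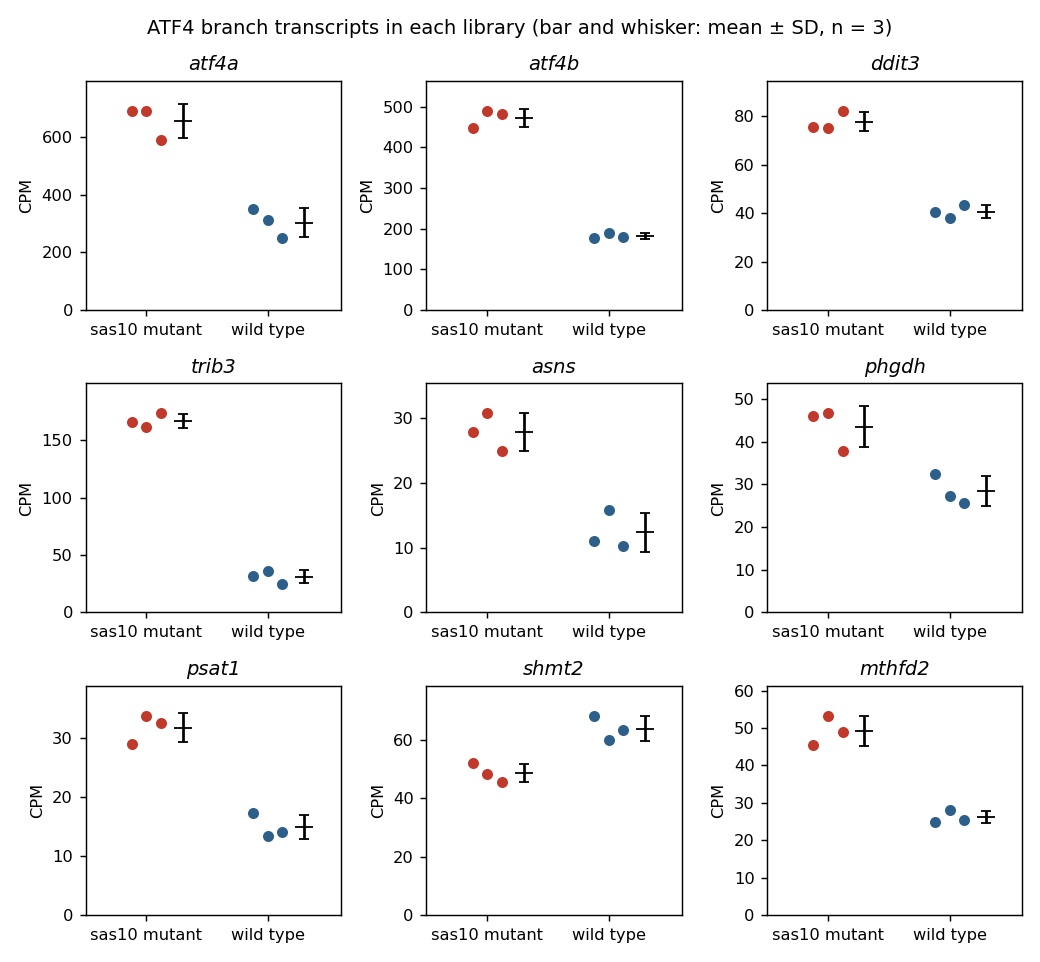
CPM on scaled library sizes (y axes, from 0) of the 9 genes with counts, in each sas10 mutant library (red) and each wild type library (blue); bars and whiskers are mean ± SD, n = 3. Mutant points lie above wild type points in 8 panels and below them for shmt2.

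All 3 transcription factor genes rose. The gene atf4a (ENSDARG00000111939, GRCz11 chromosome 6, 269204 to 272554) had 691.7, 690.3 and 589.7 CPM in mutants and 349.8, 311.1 and 250.7 CPM in wild type. The lowest mutant library stood well clear of the highest wild type library. The log2 fold change was 1.11 ± 0.15 (SE, n = 3 each; edgeR adjusted p = 5.59e-05).

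Its paralog atf4b (ENSDARG00000038141, chromosome 3, 24197934 to 24200819) had 447.9, 489.4 and 481.5 CPM in mutants and 177.9, 190 and 178.5 CPM in wild type, again without overlap. It rose by log2 1.38 ± 0.12 (edgeR adjusted p = 1.32e-06), and 7.3% of tested genes had a higher log2 fold change. The third factor gene, ddit3 (ENSDARG00000059836, chromosome 6, 58915889 to 58919086), encodes CHOP, a C/EBP family partner of ATF4 known in mammals for its part in stress-induced cell death. Its mutant libraries were at 75.7, 75.0 and 82.2 CPM and its wild type libraries at 40.4, 37.9 and 43.4 CPM. The libraries of a genotype were close to each other, and the change was log2 0.94 ± 0.10 (edgeR adjusted p = 1.27e-05).

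Among the feedback and effector genes, trib3 was the member that changed most. The protein is a pseudokinase that in mammals binds ATF4 and CHOP and restrains them. The gene trib3 (ENSDARG00000016200, chromosome 11, 24058530 to 24063196) had 166, 161.4 and 173.6 CPM in mutants and 32.1, 36.4 and 25.2 CPM in wild type. The mutant libraries formed a narrow band with a coefficient of variation of 3.68%, against 18.0% in wild type. Over the tested members this coefficient was 3.68% to 11.2% in mutants and 3.76% to 24.1% in wild type. The log2 fold change was 2.42 ± 0.14 (edgeR adjusted p = 5.8e-08), exceeded by 1.82% of tested genes. The locus lies 2.31 Mb from utp3 on the same chromosome. Within 5 Mb of utp3, 168 genes were tested, of which 66.1% were called, beside 62.2% of all tested genes. Their median log2 fold change was -0.12, beside -0.04 over all tested genes. Among these 168 genes, 2, trib3 included, rose by at least as much as trib3. An effect of alleles linked to utp3 was not tested.

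The gene chac1 (ENSDARG00000070426, chromosome 20, 28266892 to 28269462) encodes an enzyme that degrades glutathione and is a known ATF4 and CHOP target in mammals. It held 0 counts in all 6 libraries. A count of 0 allows up to 0.157, 0.157 and 0.152 CPM in mutant libraries and 0.16, 0.161 and 0.17 CPM in wild type libraries (3 counts, counting error only). Unlike the other CPM values, these limits were computed on total counts without scaling. These limits concern assigned reads and not the transcript, because all 1705 exonic bases of chac1 lie inside exons of ino80 on the opposite strand. The counting command named no strand option and no option to count overlapping genes, and by default featureCounts assigns a read that overlaps exons of 2 genes to neither. Across the table, 291 genes shared every exonic base with other genes, and 98.3% of them were at 0 in all libraries, against 12.8% of the other genes. No statement on chac1 in sas10 mutants can therefore be made from the counts. The overlapping gene ino80, which encodes a chromatin remodelling ATPase, was at 26.8 CPM in mutants and 26.9 CPM in wild type and was not called (log2 -0.01, edgeR adjusted p = 0.941).

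**Figure D2:**
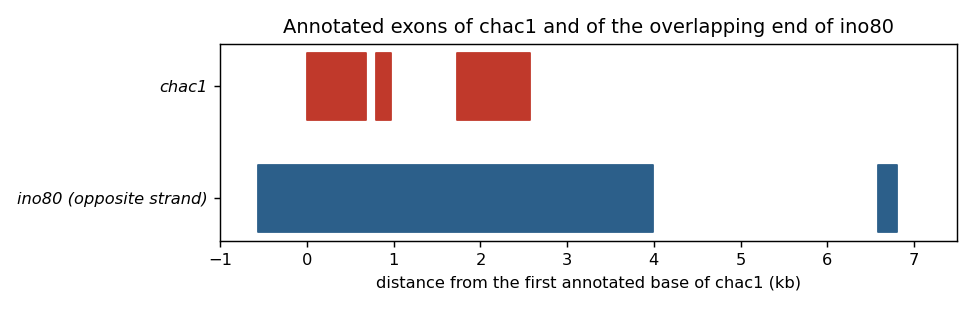
Annotated exons of chac1 and of the overlapping end of ino80, drawn to scale against the distance from the first annotated base of chac1 (kb). Every exon of chac1 falls within 1 long exon of ino80, which lies on the opposite strand.

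The gene asns encodes asparagine synthetase, which makes asparagine from aspartate and glutamine and is among the most studied ATF4 targets of mammals. Per exon length it was the tested member with the lowest level in both genotypes. The gene (ENSDARG00000016375, chromosome 19, 25656812 to 25678002) had 27.9, 30.7 and 24.9 CPM in mutants and 10.9, 15.7 and 10.3 CPM in wild type. The wild type library headed wt12 stood above the other 2, and the wild type coefficient of variation of 24.1% was the highest among the members. The gene rose by log2 1.17 ± 0.17 (edgeR adjusted p = 8.94e-05).

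Both members at the head of serine synthesis rose. Phosphoglycerate dehydrogenase, encoded by phgdh (ENSDARG00000001873, chromosome 9, 48185936 to 48214216), draws carbon from glycolysis in the first step. Its mutant libraries were at 46.1, 46.7 and 38.0 CPM and its wild type libraries at 32.5, 27.3 and 25.6 CPM. The third mutant library came closest to wild type without overlapping it, and the log2 fold change was 0.61 ± 0.13 (edgeR adjusted p = 0.00155). The aminotransferase gene psat1 (ENSDARG00000016733, chromosome 5, 69486184 to 69499595), for the second step, had 29.1, 33.8 and 32.6 CPM in mutants and 17.3, 13.4 and 14.2 CPM in wild type. Its change was log2 1.09 ± 0.13 (edgeR adjusted p = 2.44e-05). The final step is the phosphatase encoded by psph, which is no member and was named after its values were seen. Its mean was 52.5 ± 5.17 CPM in mutants and 35.2 ± 6.11 CPM in wild type (SD, n = 3 each; log2 0.58 ± 0.14, edgeR adjusted p = 0.00317).

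The mitochondrial one-carbon genes moved in opposite directions. Serine hydroxymethyltransferase 2, encoded by shmt2 (ENSDARG00000104414, chromosome 6, 59176470 to 59230818), splits serine into glycine and a folate-bound carbon. It fell to 52.0, 48.4 and 45.6 CPM in mutants, against 68.2, 59.9 and 63.4 CPM in wild type. The groups did not overlap, and the change of log2 -0.39 ± 0.10 was the smallest among the members (edgeR adjusted p = 0.00639). The gene mthfd2 (ENSDARG00000098646, chromosome 5, 69716458 to 69732754), for the dehydrogenase and cyclohydrolase that oxidizes that carbon unit, had 45.4, 53.3 and 49.0 CPM in mutants and 24.97, 28.2 and 25.5 CPM in wild type. It rose by log2 0.91 ± 0.11 (edgeR adjusted p = 2.95e-05). Of its 2386 exonic bases, 44 are shared with mob1a on the opposite strand, a gene that also rose (log2 1.06 ± 0.13, edgeR adjusted p = 2.62e-05), and without strand the reads there cannot be assigned. The genes shmt2 and ddit3 lie 257.4 kb apart on chromosome 6 and changed in opposite directions, while psat1 and mthfd2 lie 216.9 kb apart on chromosome 5 and both rose.

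**Figure D3:**
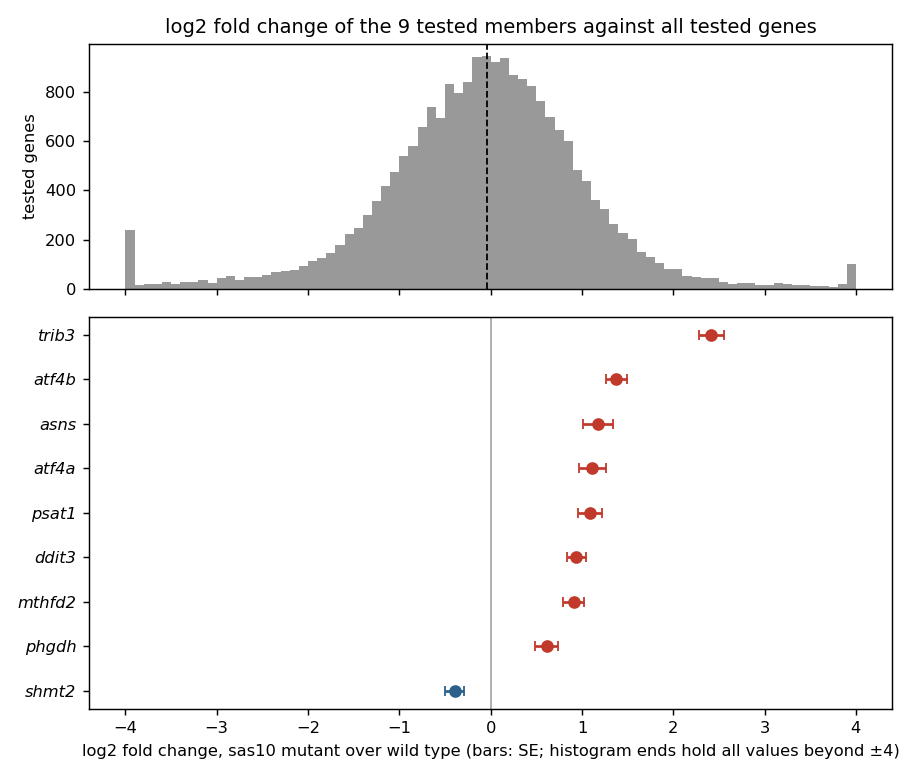
Top, number of tested genes by log2 fold change of sas10 mutant over wild type, with the median dashed and values beyond 4 in either direction held in the end bins; bottom, the 9 tested members with SE bars on the same axis. Members lie from -0.39 for shmt2 to 2.42 for trib3, and 8 of the 9 lie right of the median of all genes.

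Related members were then set against each other within each library, as differences of log2(TPM + 1). The pseudocount of 1 slightly understates differences of low genes. For mthfd2 minus shmt2 the difference was -0.87, -0.54 and -0.58 in mutants and -2.08, -1.74 and -1.96 in wild type, so that the ratio of mthfd2 to shmt2 was 0.541 to 0.683 in mutants and 0.227 to 0.291 in wild type. The genotypes did not overlap and differed by 1.27 (exact two-sided permutation test, p = 0.1, adjusted p = 0.15 over 3 pairs). For psat1 minus phgdh the values were -0.24, -0.05 and 0.19 in mutants and -0.48, -0.58 and -0.42 in wild type, again without overlap, with a difference of 0.46 (exact permutation p = 0.1, adjusted p = 0.15). In wild type, psat1 was below phgdh in every library, and in mutants the ratio of psat1 to phgdh was 0.841, 0.965 and 1.14. For atf4a minus atf4b the values were 1.12, 0.99 and 0.79 in mutants and 1.47, 1.20 and 0.98 in wild type. These overlapped, and the difference of -0.25 was within the spread between libraries (exact permutation p = 0.3, adjusted p = 0.3). With 3 libraries against 3 the smallest p possible is 0.1, so none of the 3 pairs could pass a threshold of 0.05.

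**Figure D4:**
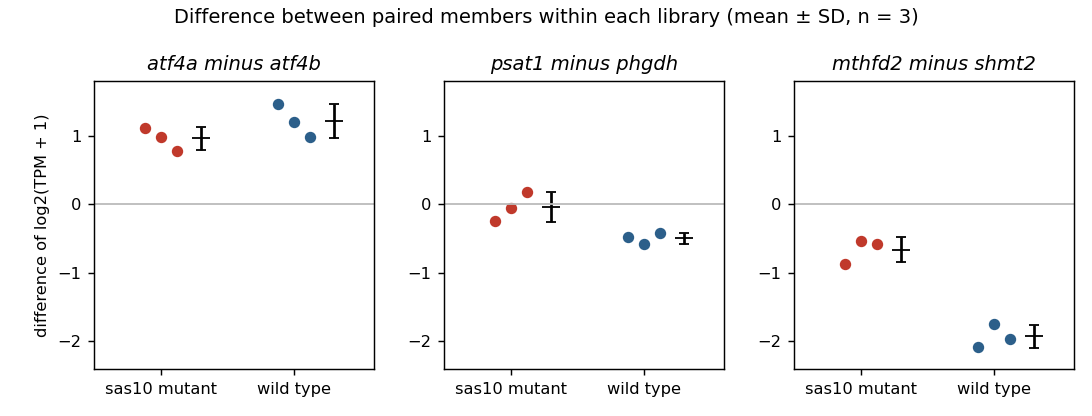
Difference of log2(TPM + 1) between paired members in each sas10 mutant library (red) and each wild type library (blue), with mean ± SD, n = 3; the grey line marks equal levels. The genotypes overlap for atf4a minus atf4b and are separate for psat1 minus phgdh and mthfd2 minus shmt2.

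Among genes of eIF2 signalling, 5 of 14 tested genes rose, 2 fell and 7 were not called (median log2 0.25, beside -0.04 over all tested genes, of which 30.5% rose and 31.8% fell). The number that rose was 7 without the wild type library wt11. Both regulatory subunits that direct a phosphatase to eIF2 rose: ppp1r15b was at 32.2 ± 2.10 CPM in mutants and 6.28 ± 0.89 CPM in wild type (SD, n = 3 each; log2 2.36 ± 0.14, edgeR adjusted p = 8.12e-08), and ppp1r15a was at 131.7 ± 3.08 CPM in mutants and 49.5 ± 5.25 CPM in wild type (log2 1.41 ± 0.11, edgeR adjusted p = 7.22e-07). The genes that fell were eif2ak3, for the kinase PERK of the endoplasmic reticulum (log2 -0.83 ± 0.15, edgeR adjusted p = 0.000469), and dele1, which relays mitochondrial stress to the eIF2 kinase HRI in mammals (log2 -0.46 ± 0.13, edgeR adjusted p = 0.00788). The other eIF2 kinase genes were named after their values were seen. The HRI gene eif2ak1 rose (log2 0.64 ± 0.13, edgeR adjusted p = 0.00116), while eif2ak4, for the amino acid sensor GCN2, and eif2ak2 were not called, at log2 -0.17 and -0.41.

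Of 16 tested partner and related transcription factor genes, 10 rose, 2 fell and 4 were not called (median log2 0.60). Over all tested genes, 30.5% rose and 31.8% fell. The C/EBP gene cebpb, whose product pairs with ATF4, rose by log2 4.78 ± 0.18 (edgeR adjusted p = 2.03e-09) and atf3, itself an ATF4 target in mammals, by 3.88 ± 0.18 (edgeR adjusted p = 1.73e-08). The genes that fell were nupr1b, for a stress-induced chromatin protein (log2 -2.00 ± 0.15, edgeR adjusted p = 5.12e-07), and a creb1 copy (ENSDARG00000093420, log2 -0.63 ± 0.14, edgeR adjusted p = 0.00242).

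The remaining genes of serine, glycine and folate metabolism were mixed: of 20 tested, 8 rose, 4 fell and 8 were not called (median log2 0.15). Calls were about as common here as over all tested genes, of which 62.2% were called, 30.5% as higher and 31.8% as lower. The largest increase was in mthfd1l, for the mitochondrial enzyme that releases formate after the step of mthfd2, at 113.3 ± 16.6 CPM in mutants and 20.1 ± 4.92 CPM in wild type (log2 2.50 ± 0.18, edgeR adjusted p = 5.42e-07). Of the mitochondrial folate carrier slc25a32, a copy rose (ENSDARG00000026835, log2 1.86 ± 0.13, edgeR adjusted p = 3.62e-07) and another fell (ENSDARG00000089791, log2 -0.83 ± 0.11, edgeR adjusted p = 5.75e-05). The decrease in amt, for the aminomethyltransferase of the glycine cleavage system, was log2 -1.07 ± 0.12 (edgeR adjusted p = 1.21e-05). The decarboxylase gene of the same system, gldc, named after its value was seen, was at 211.0 CPM in mutants and 74.4 CPM in wild type and rose (edgeR adjusted p = 3.54e-05). The cytosolic counterpart of shmt2, shmt1, likewise named after its value was seen, was not called, at log2 -0.16 (edgeR adjusted p = 0.326). Of these genes, 2 fell when mutant library s1 was left out, and 2 when s2 was.

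Of 42 other genes known as ATF4 targets in mammals, each copy counted, 25 rose, 8 fell and 9 were not called (median log2 0.68). The shares over all tested genes were 30.5% higher and 31.8% lower. Like the members, the pathway lists were chosen with earlier results of these data known, so their counts are a description only. The stress sensor gene sesn2 was at 36.6 ± 1.92 CPM in mutants and 4.12 ± 0.55 CPM in wild type (SD, n = 3 each; log2 3.15 ± 0.14, edgeR adjusted p = 8.82e-09), and the cell cycle inhibitor gene cdkn1a, which is also a p53 target, rose by 3.21 ± 0.23 (edgeR adjusted p = 1.77e-06). Decreases were greatest for a cth copy (ENSDARG00000032206, log2 -1.41 ± 0.37, edgeR adjusted p = 0.0076) and a cbs copy (ENSDARG00000053500, log2 -1.14 ± 0.12, edgeR adjusted p = 7.56e-06). Enzymes of these genes turn homocysteine into cysteine. The cth copy was low, at 2.64 ± 1.40 CPM in mutants and 7.04 ± 1.76 CPM in wild type (SD, n = 3 each). The cbs copy was at 19.1 CPM in mutants and 42.0 CPM in wild type. The other copies of these enzymes, cth (ENSDARG00000074301) and cbsb, named after their values were seen, were not called, at log2 0.16 and 0.10. Their levels were higher: 110.8 CPM in mutants and 99.1 CPM in wild type for cth, and 91.1 and 84.9 CPM for cbsb.

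**Figure D5:**
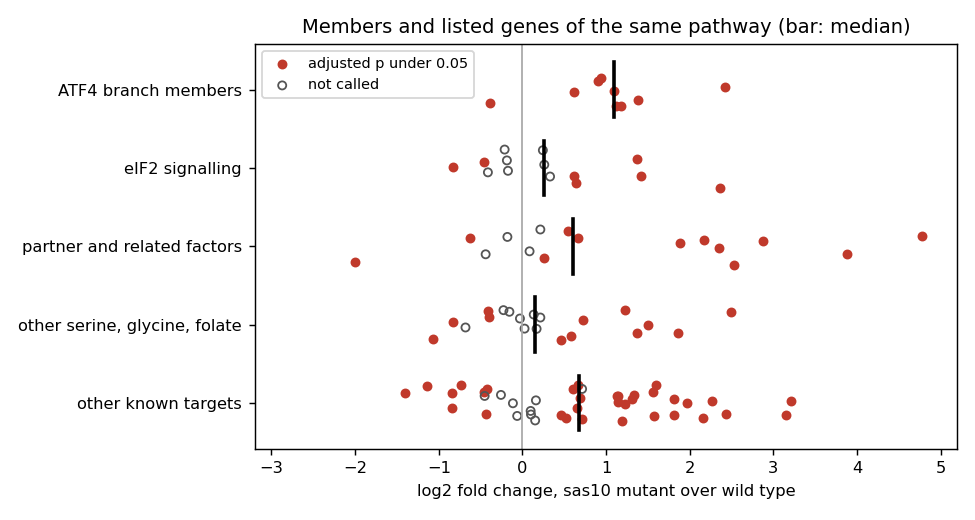
Log2 fold change of sas10 mutant over wild type for the tested members and for 4 lists of other genes of the pathway; filled points were called at an edgeR adjusted p under 0.05, open points were not, and vertical bars are medians. Medians are 1.09 for the members and 0.15 to 0.68 for the 4 lists.

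Markers of several tissues moved with genotype, where 30.5% of all tested genes rose and 31.8% fell. Median log2 fold changes were -7.48 for exocrine pancreas, -3.06 for intestine, -1.29 for hepatocyte and -0.86 for neuron and radial glia genes. They were 0.44 for skeletal muscle, -0.27 for proliferation and -0.37 for myeloid genes, beside -0.04 over all tested genes. All 12 tested exocrine pancreas genes fell, with summed levels of 275 to 284.7 CPM in mutants and 19390 to 30580 CPM in wild type. Of 15 hepatocyte genes 9 fell and 4 rose, with sums of 8006 to 8600 CPM in mutants and 9171 to 10760 CPM in wild type. Of 18 neuron and radial glia genes 11 fell and 4 rose (1528 to 1832 CPM in mutants, 2588 to 3018 CPM in wild type). Looked up after the values were seen, the 4 that rose were gfap, both fabp7 copies and s100b (log2 0.31 to 0.77). Both slc1a2 copies and a slc1a3 copy were among those that fell. The sum therefore does not describe neurons and glia separately. Of 13 intestine genes 11 fell and 1 rose (2092 to 3111 CPM in mutants, 3903 to 4566 CPM in wild type). Much of these sums came from apoa1a, the gene that rose (1722 CPM in mutants, 1267 CPM in wild type), and apoa4b.1 (674.2 and 993.2 CPM). Some of the others fell far more, such as fabp2 (45.9 and 698.5 CPM). These intestine genes were named after their values were seen. Of 12 skeletal muscle genes 6 rose and 1 fell, summing to 67900 to 70410 CPM in mutants and 41780 to 60580 CPM in wild type. Of 12 tested proliferation genes 2 rose and 6 fell (491.5 to 516 CPM in mutants, 519.1 to 570.6 CPM in wild type), and of 5 tested myeloid genes 2 rose and 2 fell (66.0 to 193.6 CPM in mutants, 38.2 to 48.5 CPM in wild type). The listed myeloid markers mpx and mpeg1.1 found no match by symbol and lyz was not tested, so the myeloid values rest on the other genes. The myeloid sum was higher in mutants through mmp13a alone, and without it the other 4 genes summed to 25.1 to 28.1 CPM in mutants and 37.2 to 46.8 CPM in wild type. Leaving out the hepatocyte gene tfa, the gene of its list with the greatest difference, gave overlapping sums of 7674 to 8353 CPM in mutants and 8014 to 9120 CPM in wild type. These sums without a single gene were added after the data were seen, as were the hepatocyte genes named next. Much of the hepatocyte sums came from apoa2 (2597 CPM in mutants, 1914 CPM in wild type) and apobb.1 (2682 and 3538 CPM). Other genes of that list fell far more, such as fabp10a (8.09 and 365.3 CPM) and ttr (0.57 and 58.45 CPM). Those that rose were apoa2, fga (596.6 and 148.8 CPM), fgb and fgg. No marker in these lists was at 0 in all mutant libraries while present in wild type, but some came close. Named after their values were seen, ahsg1 held 3 counts over the mutant libraries and 1294 over wild type, and amy2a 37 and 70426. The part of tissue makeup in the changes of the ATF4 branch genes was not tested.

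The genes whose log2 CPM followed a member most closely over the 6 libraries were slc10a3 for atf4a (Pearson r = 0.9995), chp1 for ddit3 (r = 0.9991) and rbm12ba for asns (r = 0.9993). These points share libraries and fall into 2 genotypes, and correlations of at least 0.95 with atf4a, ddit3 and asns were reached by 19.3%, 17.4% and 8.23% of the 14765 genes compared, so high coefficients were common.

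The authors' deposited table lists 7 of the 10 genes, with trib3 at log2 2.35 and the other 6 between 0.84 for mthfd2 and 1.31 for atf4b. The authors' deposited table holds 8574 genes, none with an absolute log2 fold change under 0.585, and phgdh, shmt2 and chac1 are not among them. All 7 listed values were lower than those of the fit here, such as 1.05 against 1.11 for atf4a and 0.84 against 0.91 for mthfd2. The fit here put phgdh at 0.61, close to 0.585, and the reason for its absence was not tested.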

How the data were processed

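PolyA RNA of whole embryos was sequenced. The submitters' processing notes name DESeq2 1.40.2, Salmon 0.12, HISAT2 2.2.1 and fastp 0.20.0, and the build GRCz11. Raw counts per gene were deposited, made per the file headers with featureCounts 2.0.1 from read pairs over exons of the Ensembl release 105 annotation, without a strand option. The authors' deposited comparison table gives log2 fold changes with standard errors and adjusted p-values, without values per library. A deposited table of ribosomal RNA regions was not used here.

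Column headings give the genotype of each library but no replicate number from the labels, so libraries are named by heading. Libraries of a genotype were not duplicates. The chi-square of their counts, divided by its degrees of freedom, was 7.67 to 9.71 in mutants and 10.6 to 32.2 in wild type. What the p-values reflect is the spread among these 6 libraries. Symbols matched 29201 of 32520 identifiers, and where a listed symbol had no match its copies under the shared name were taken; 10 of 187 listed symbols were unmatched.

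The fit used edgeR 4.0.16 under R 4.3.3 (TMM scaling, default expression filter, 21708 genes kept, robust quasi-likelihood test, Benjamini-Hochberg adjustment over all tested genes); the script was tested on simulated data. Standard errors derive from the quasi-likelihood statistic. TPM were computed from counts and the table's exon lengths. The exact permutation tests used scipy 1.17.1. Named were all members, utp3, the 2 largest called increases and decreases of each of 4 pathway lists, and the gene most correlated with atf4a, ddit3 or asns at a mean of at least 5 CPM; ino80 and mob1a were named for sharing exons with members, and other names, chosen after values were seen, are marked where they appear. Members and lists were chosen with earlier results of these data known. Promoter sequence was not analysed here. Alternatives were RLE and upper-quartile scaling, other filters, DESeq2 1.42.0, limma voom 3.58.1, a replicate block, another pseudocount or scale, and each library left out.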

Additional observations from a re-analysis of the deposited data

How the results depend on the processing

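For the 9 tested members, direction and call were the same in all 13 alternative fits, which gave 117 comparisons of a member with its main fit. In each of these fits 8 members were higher and 1 lower. The log2 fold change of shmt2 ran from -0.44 to -0.33 with single libraries left out, and its edgeR adjusted p came nearest the threshold at 0.043 without s3. For trib3 it ran from 2.30 to 2.54, for phgdh from 0.56 to 0.73 and for asns from 1.07 to 1.39, the last highest without wt12. Upper-quartile scaling shifted the median of all genes by -0.13 and gave 5630 genes higher and 8047 lower (41.2% of calls higher, against 49.0% under TMM), and the members' values moved with it (shmt2 -0.52, phgdh 0.48). The gene utp3 and the 16 pathway genes named by the rule also kept direction and call in the 13 alternative fits (221 comparisons). Genes named after their values were seen were not followed through the alternatives. Columns with the same last digit deviated together only weakly (correlations 0.12, 0.05 and 0.24), and those with other digits had correlations of -0.20 to 0.07. Columns s1 and s3 followed the wild type column of the same digit most closely, while s2 followed wt11 more closely than wt12. These values do not settle whether the libraries were paired. The labels state no pairing, so the numbers were not taken to pair the libraries. With a replicate block, 6886 genes were higher and 7138 lower over all genes, and 8 genes of eIF2 signalling were higher in place of 5; the cause was not tested. With single libraries left out, genes higher over all genes ranged from 5923 to 7129 and genes lower from 5937 to 7138, and the serine, glycine and folate genes that fell numbered 2 to 4. The differences between paired members kept their sign: -0.37 to -0.13 for atf4a minus atf4b, 0.35 to 0.56 for psat1 minus phgdh and 1.19 to 1.37 for mthfd2 minus shmt2. Depth limits the genes of low counts, and the 0 of chac1 stands beside full exon overlap with ino80 at every depth.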

Other observations

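Copies of duplicated genes in the pathway lists did not all move alike, and the following were named after their values were seen. Of the amino acid transporter heavy chain slc3a2, a copy (ENSDARG00000037012) was at 364.7 ± 23.9 CPM in mutants and 123.5 ± 27.3 CPM in wild type (SD, n = 3 each; log2 1.56 ± 0.16, edgeR adjusted p = 7.19e-06), while slc3a2a was at 100.4 ± 8.09 CPM in mutants and 137.8 ± 11.4 CPM in wild type (log2 -0.46 ± 0.11, edgeR adjusted p = 0.0038). A copy of eif2s1, for the eIF2 subunit that is phosphorylated (ENSDARG00000005827), rose by log2 1.37 ± 0.11 (edgeR adjusted p = 1.17e-06), and the other copy (ENSDARG00000052178) was not called, at 0.26 (edgeR adjusted p = 0.104). For ATF5, a close relative of ATF4, atf5b rose by log2 1.89 ± 0.11 (edgeR adjusted p = 5.22e-08) and atf5a by 0.54 ± 0.11 (edgeR adjusted p = 0.000973). Differences between copies were not tested.

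The genes of this paragraph were also named and grouped after their values were seen. The 8 aminoacyl-tRNA synthetase genes in the list of other known targets all rose, by log2 1.14 to 2.27. Over all tested genes 30.5% rose, and of the 42 genes in that list 25 rose, 8 fell and 9 were not called. Among the synthetase genes, tars1 was at 246.5 ± 15.0 CPM in mutants and 51.2 ± 2.71 CPM in wild type. The transporter gene slc7a11, which imports cystine for glutathione synthesis and is an ATF4 target in mammals, was at 5.202 ± 0.67 CPM in mutants and 8.62 ± 0.65 CPM in wild type (log2 -0.73 ± 0.17, edgeR adjusted p = 0.00249). The chromatin of these loci and the ATF4 protein were not analysed here.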
